A study of Arabidopsis thaliana with 18 samples.

Results

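The data described here are the transcript signals of 16 Arabidopsis thaliana genes that MeJA (methyl jasmonate, the volatile ester of a plant stress hormone) raised in wild-type plants and in the jaz10 mutant, and raised less in the jaz10phyb double mutant. They were chosen from the 5689 genes tested by their own MeJA changes, each taken as the mean log2(signal + 1) of the MeJA arrays minus that of the control arrays. A gene was taken when the change was at least 0.8 in Col and in jaz10 and under 0.5 in jaz10phyb. The first condition alone held for 256 genes, and 240 of these stayed at or above the limit in jaz10phyb. Named exceptions to the rule removed 0 of the genes that met it. Because the Col, jaz10 and jaz10phyb changes chose the genes, these values are a description, and counts of calls in these contrasts support nothing. The MeJA change in phyb was not used in the choice, although phyb arrays entered the filter on signal and the choice of probe set.

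The study covered 18 single-colour arrays of whole plants aged 4 weeks and grown in short days, with 4 genotypes each sprayed with 250 µM MeJA or with a water mock (the control) and harvested 3 h later. The genotypes were wild-type (Col-0, here Col), the phyB-9 mutant (phyb), a jaz10 mutant whose allele the labels do not give, and the jaz10phyB-9 double mutant (jaz10phyb). Control and MeJA phyb plants had 3 arrays each and the other 6 groups 2 each, every array made from pooled plants. The labels leave it unsaid if replicate pools were grown apart, so a p-value here reflects pool-to-pool spread that may be technical. In whole plants, fewer cells of a type and less RNA per cell cannot be told apart. Among markers fixed for tissues, 1 of 20 green-leaf genes had a named probe set, the Rubisco activase gene RCA, with a signal between 2827 and 3508 over the arrays. Of 17 root genes 5 had one (PYK10, BGLU21, BGLU22, EXPA7 and PEP), and 2 of these passed the signal minimum. The summed signal was 1083 to 1144 in Col controls and 1666 to 1741 after MeJA, and 839 to 921 and then 1771 to 1813 in jaz10. It was 818 to 881 and then 1434 to 1745 in jaz10phyb, and 854 to 1477 and then 687 to 1573 in phyb as labelled. The part of this shift in the results below was not tested. JAZ10 and PHYB transcripts, which would check the mutant labels, and flower and seed markers were not analysed here.

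The 16 genes also show that 2 phyb arrays stood with the opposite treatment, as the other raised genes did. Their mean log2 level was 6.87 in phyb control 2, against 6.14 and 6.22 in phyb controls 1 and 3. It was 6.17 in phyb MeJA 3, against 6.81 and 6.56 in phyb MeJA 1 and 2. In jaz10phyb it was 6.42 and 6.40 in controls and 6.86 and 6.78 after MeJA, with controls above and MeJA arrays below all those of Col and jaz10. Calls and the median change of the 16 genes in phyb are therefore given as labelled and without these 2 arrays. The changes of single genes and the control levels in phyb are given mainly without them, beside signals in all phyb arrays for named genes. No array was relabelled. Leaving the 2 arrays out does not alter any change in Col, jaz10 or jaz10phyb, only the spread that all groups share.

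**Figure D1:**
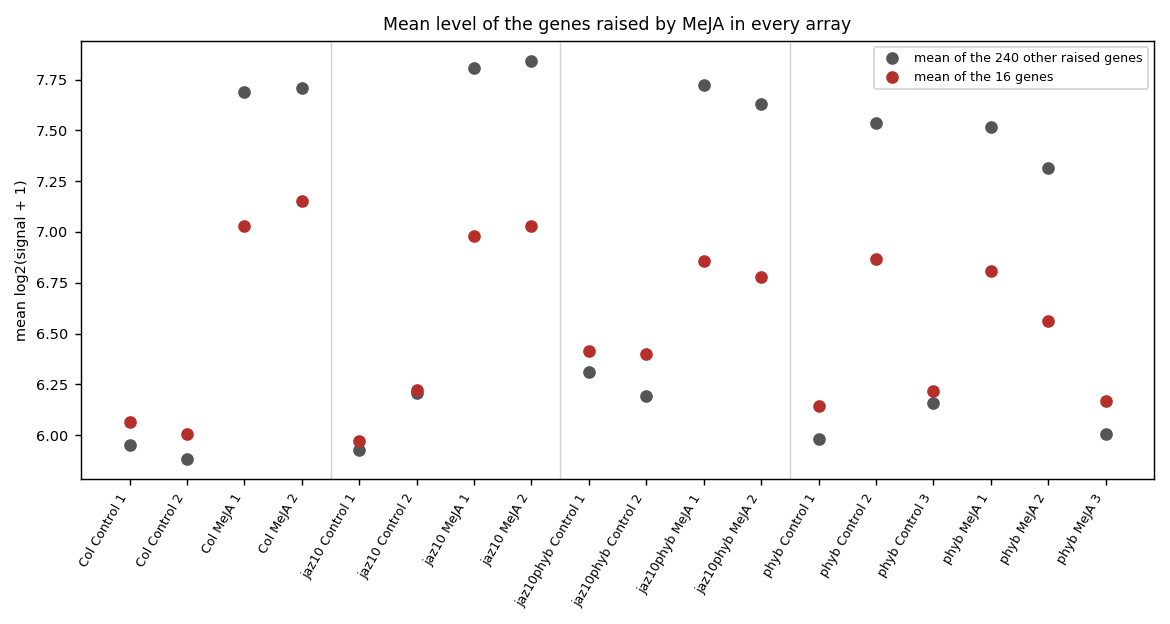
Mean log2(signal + 1) of the 16 genes (red) and of the 240 other genes raised in Col and jaz10 (grey), a point for each array. phyb Control 2 lies with the MeJA arrays and phyb MeJA 3 with the control arrays, and the red points of jaz10phyb lie closer together than those of Col and jaz10.

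Jasmonate is perceived by the F-box receptor COI1, which binds JAZ repressor proteins when the hormone is present and sends them for degradation. JAZ proteins otherwise hold back MYC2 and related transcription factors, so their loss opens the response, and JAZ10 is one member of this family. Phytochrome B is the main receptor of red light in green tissue, and its inactivation by the far-red light of neighbouring plants is known to lower the response of Arabidopsis to jasmonate, an effect for which JAZ10 is known to be needed. The design asks how loss of both proteins shapes the transcript response to MeJA.

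Only 3 of the 16 genes carry a symbol in the RefSeq table, and the other 13 are named here by locus, without a role, because no source used here annotates them. GH9B8 (AT2G32990) is a glycosyl hydrolase of family 9, a family of endoglucanases that act on cell wall glucans. PUB43 (AT1G76390) belongs to the plant U-box proteins, a family of ubiquitin ligases. HOS3-1 (AT4G36830) carries the name of a mutant with high expression of osmotically responsive genes, and its product resembles fatty acid elongases of the ELO type. AT1G76580 and AT1G76590 lie close together in the genome, with 1 gene between them in the RefSeq table of assembly TAIR10.1, and PUB43 lies 20 genes from the nearer of them. Each of the 16 genes was measured by 1 named probe set.

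The MeJA change of the 16 genes ranged from 0.82 to 1.43 in Col with a median of 1.03, and from 0.80 to 1.12 in jaz10 with a median of 0.89 (log2 scale, n = 2 arrays per group). In jaz10phyb it ranged from 0.23 to 0.49 with a median of 0.44, so every gene kept a positive change. The SE of these changes lay between 0.17 and 0.31. These SEs, and those given below for single genes in Col, jaz10 and jaz10phyb, come from the model with all arrays. Its shared spread includes the 2 doubtful phyb arrays. In the model without them the jaz10phyb SE was, for example, 0.13 for GH9B8 and 0.26 for AT5G49280, against 0.31 for both with all arrays. The change in jaz10phyb was between 24.9% (AT4G16140) and 54.4% (AT3G11880) of the mean log2 change of Col and jaz10, with a median of 44.2%. In 13 of the 16 genes the change was larger in Col than in jaz10.

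The 240 other raised genes had median changes of 1.54 in Col, 1.52 in jaz10 and 1.25 in jaz10phyb, and all 5689 genes had medians of -0.02, -0.05 and -0.08. The 16 genes thus came from the low end of the raised genes, with a mean Col and jaz10 change of at most 1.19. A smaller change in jaz10phyb than in both Col and jaz10 also held for 186 of the 240 other genes. The change of the 240 in jaz10phyb was a median of 80.4% of the Col and jaz10 mean. The 240 were chosen for a high change in Col and jaz10, so the choice itself favours a smaller value in jaz10phyb. They were also chosen for a jaz10phyb change of at least 0.5, which favours a larger value there. Their count and percentage are therefore no neutral background for the 16. Of these 240 genes, 10 had a percentage at or below the highest among the 16 and missed the limit because their changes were larger. The limit fell in a continuous range. Just inside it were AT3G14067 (0.49), PUB43 (0.49) and GH9B8 (0.48). Just outside were AT5G52410 (0.51), the transcription factor gene NGA3 (0.51) and AT3G17120 (0.58).

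**Figure D2:**
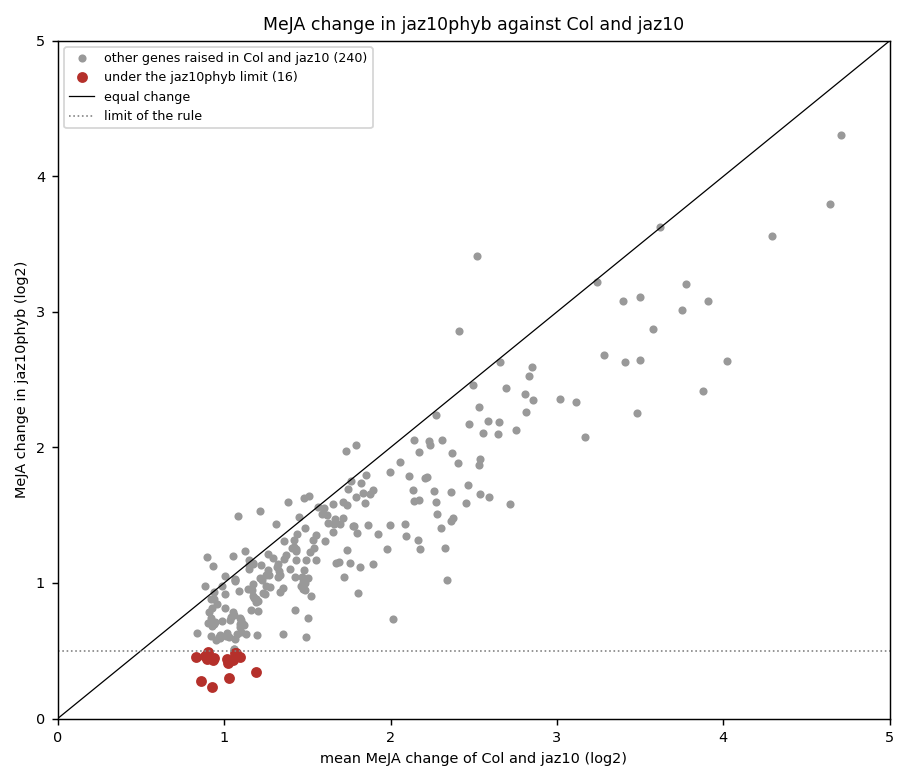
MeJA change in jaz10phyb against the mean MeJA change of Col and jaz10 (log2 scale), a point for each of the 256 genes raised in both. The 16 genes (red) lie under the limit of 0.5 and at the low end of the horizontal axis, and most grey points also lie under the line of equal change.

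For orientation, a limma model over all 5689 genes called 15 of the 16 genes higher after MeJA in Col (468 genes in all, 8.23%) and 11 in jaz10 (251 genes, 4.41%), at an adjusted p under 0.05. Without the 2 doubtful phyb arrays it called 16 in Col (14.9% of all genes) and 16 in jaz10 (10.2%). Both contrasts chose the genes, so nothing is read from these counts. With the doubtful arrays kept, nearly all calls in Col and in jaz10 were lost without any 1 array of that genotype. This held for the 16 as for all genes, and such a fit leaves a group 1 array. Most jaz10 calls were also lost without any 1 Col or jaz10phyb array. Without phyb MeJA 2 the jaz10 count was 3 of 16, with 343 genes called in either direction. With the doubtful arrays left out, most calls stayed when 1 further Col or jaz10 array was left out. In jaz10phyb limma called 0 of the 16 genes, where 1 gene of 5689 was higher (0.0176%) and 1 was lower with all arrays. At an unadjusted p under 0.05, 1 of the 16 and 1319 genes in all (23.2%) passed there. Without the 2 doubtful phyb arrays it called 5 of 16 higher, PUB43, AT2G05260, GH9B8, AT3G11880 and AT3G14067, against 7.44% of all genes. That count was 1 and 2 without jaz10phyb control 1 and 2, and 2 without jaz10phyb MeJA 1. Both jaz10phyb MeJA arrays were above both jaz10phyb controls in 15 of the 16 genes, the exception being AT5G49280, and in 20% of all genes.

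**Figure D3:**
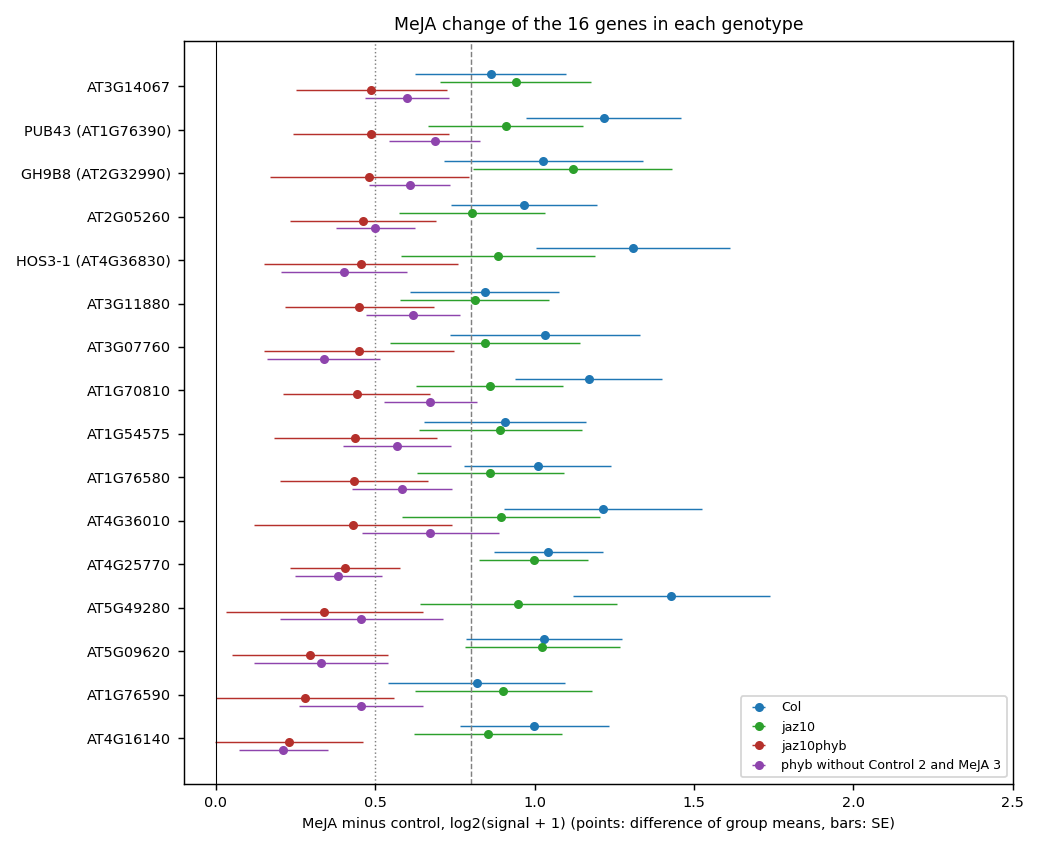
MeJA minus control on the log2(signal + 1) scale for each of the 16 genes, with points for the difference of group means and bars for the SE (limma, 2 arrays per group, phyb from the model without its doubtful arrays). The other bars come from the model with all arrays, whose shared spread includes the 2 doubtful ones. The phyb bars are therefore shorter (median SE 0.15 against 0.24) and do not mean a more precise measurement. In the model without these arrays, jaz10phyb and phyb had equal SEs. Dotted and dashed lines mark the limits of 0.5 and 0.8. The jaz10phyb points lie between 0.23 and 0.49 by the rule, and the phyb points without its 2 doubtful arrays lie between 0.21 and 0.69, left of the Col and jaz10 points.

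A smaller change can come from a higher control level or from a lower level after MeJA. Relative to the mean of Col and jaz10, the control level of jaz10phyb was higher in 15 of the 16 genes, by a median of 0.30 over the 16, against 0.18 for the 240 other raised genes and -0.01 for all genes (log2 differences). The level after MeJA was lower in 13 of the 16, with a median difference of -0.25, against -0.13 and -0.06. The control difference made up more than 50% of the gap between the mean Col and jaz10 change and the jaz10phyb change in 8 genes and less in the other 8. Both jaz10phyb controls were above all 4 Col and jaz10 controls in 10 of the 16 genes, in 62 of the 240 others and in 9.51% of all genes. Both jaz10phyb MeJA arrays were below all 4 Col and jaz10 MeJA arrays in 7 of the 16, in 70 of the 240 and in 17.2% of all genes. The rule used all of these arrays, so the counts describe the choice and are no support for it.

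**Figure D4:**
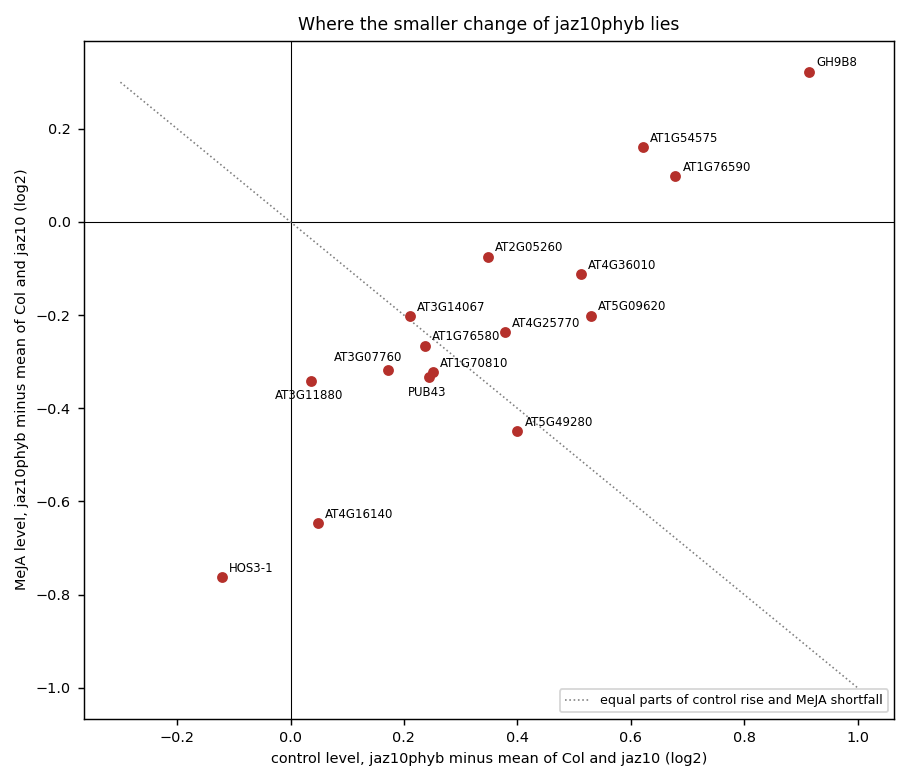
For each of the 16 genes, the control level of jaz10phyb minus the mean of Col and jaz10 (horizontal, log2) and the same difference after MeJA (vertical, log2). GH9B8, AT1G54575 and AT1G76590 lie at the upper right with higher levels in both treatments, and HOS3-1 and AT4G16140 at the bottom, with control differences of -0.12 and 0.05. The dotted line marks equal parts of both differences.

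In 3 genes the jaz10phyb level was higher in both treatments. The GH9B8 signal was 128 and 117 in Col controls and 233 and 269 after MeJA, 111 and 129.5 and then 250.4 and 272 in jaz10, and 232 and 226 and then 299 and 343 in jaz10phyb. Its jaz10phyb controls were just below the Col and jaz10 MeJA arrays, and both jaz10phyb MeJA arrays were the highest of these 12. The MeJA change of GH9B8 was 1.03 ± 0.31 in Col, 1.12 ± 0.31 in jaz10 and 0.48 ± 0.31 in jaz10phyb, and its control level lay 0.91 above the Col and jaz10 mean, more than in any other of the 16. AT1G54575 had signals of 52.6 and 45.4 in Col controls and 80.1 and 107 after MeJA, 43.7 and 53.9 and then 93.7 and 88.2 in jaz10, and 76.0 and 75.0 and then 111 and 95.2 in jaz10phyb. Both jaz10phyb controls of AT1G54575 were above all other controls of these genotypes, and its jaz10phyb MeJA arrays overlapped those of Col. Its change was 0.91 ± 0.26 in Col, 0.89 ± 0.26 in jaz10 and 0.44 ± 0.26 in jaz10phyb, with a control difference of 0.62. AT1G76590 had signals of 145 and 138 in Col controls and 238 and 264 after MeJA, 101 and 163 and then 233 and 248 in jaz10, and 249 and 188 and then 269.8 and 256 in jaz10phyb. Its jaz10phyb control 1 was within the range of the Col and jaz10 MeJA arrays, while jaz10phyb control 2 lay between their controls and their MeJA arrays. The change of AT1G76590 was 0.82 ± 0.28 in Col, 0.90 ± 0.28 in jaz10 and 0.28 ± 0.28 in jaz10phyb, with a control difference of 0.68 and a MeJA difference of 0.10.

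In 4 more genes most of the gap lay in the controls, with a mean level after MeJA below that of Col and jaz10. AT4G36010, the gene with the strongest signal after MeJA in Col, had signals of 249.9 and 185 in Col controls and 466 and 539 after MeJA, 232 and 325 and then 499 and 524 in jaz10, and 357 and 337 and then 475 and 462 in jaz10phyb. All MeJA arrays were within a narrow range, and both jaz10phyb controls were above the other controls. Its change was 1.22 ± 0.31 in Col, 0.89 ± 0.31 in jaz10 and 0.43 ± 0.31 in jaz10phyb, with differences of 0.51 in controls and -0.11 after MeJA. AT5G09620 had signals of 38.5 and 32.7 in Col controls and 69.1 and 78.1 after MeJA, 24.2 and 44.7 and then 64.9 and 71.4 in jaz10, and 45.8 and 54.2 and then 56.1 and 67.1 in jaz10phyb. Its jaz10 control 1 was the lowest array among these genotypes, and its jaz10phyb controls were again above all 4 Col and jaz10 controls. The change of AT5G09620 was 1.03 ± 0.24 in Col, 1.02 ± 0.24 in jaz10 and 0.30 ± 0.24 in jaz10phyb. AT2G05260 had signals of 25.7 and 30.4 in Col controls and 59.1 and 52.2 after MeJA, 26.0 and 26.5 and then 43.9 and 49.4 in jaz10, and 32.7 and 36.9 and then 45.2 and 51.6 in jaz10phyb, and its change was 0.97 ± 0.23 in Col, 0.80 ± 0.23 in jaz10 and 0.46 ± 0.23 in jaz10phyb. Its jaz10phyb MeJA arrays lay within the range of the other MeJA arrays. AT4G25770 had signals of 39.6 and 47.6 in Col controls and 87.2 and 93.9 after MeJA, 40.0 and 52.2 and then 87.2 and 97.3 in jaz10, and 62.3 and 54.3 and then 76.5 and 78.2 in jaz10phyb. Both its jaz10phyb controls were above, and both its jaz10phyb MeJA arrays below, all arrays of the same treatment in Col and jaz10. The change of AT4G25770 was 1.04 ± 0.17 in Col, 1.00 ± 0.17 in jaz10 and 0.41 ± 0.17 in jaz10phyb.

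In 4 genes the shortfall lay mainly in the level after MeJA. HOS3-1 had signals of 68.1 and 45.3 in Col controls and 136 and 143 after MeJA, 50.7 and 50.4 and then 84.2 and 105 in jaz10, and 43.0 and 54.9 and then 59.0 and 76.3 in jaz10phyb. Its controls overlapped between all 3 genotypes, jaz10 MeJA was below Col MeJA, and jaz10phyb MeJA was lower again. Its change was 1.31 ± 0.30 in Col, 0.89 ± 0.30 in jaz10 and 0.46 ± 0.30 in jaz10phyb, with differences of -0.12 in controls and -0.76 after MeJA, the lowest MeJA level of the 16 relative to Col and jaz10. AT4G16140 had signals of 98.3 and 117 in Col controls and 208 and 223 after MeJA, 101 and 138 and then 207 and 220.4 in jaz10, and 116 and 116 and then 136 and 137 in jaz10phyb. The jaz10phyb MeJA arrays of AT4G16140 were just under jaz10 control 2, far from the MeJA arrays of Col and jaz10. Its change was 1.00 ± 0.23 in Col, 0.85 ± 0.23 in jaz10 and 0.23 ± 0.23 in jaz10phyb, the lowest of the 16 in jaz10phyb. AT3G11880 had signals of 87.9 and 76.3 in Col controls and 154 and 142 after MeJA, 84.1 and 84.2 and then 147 and 150.0 in jaz10, and 96.2 and 75.3 and then 129.9 and 105 in jaz10phyb, and its change was 0.84 ± 0.23 in Col, 0.81 ± 0.23 in jaz10 and 0.45 ± 0.23 in jaz10phyb. Its controls overlapped, and both jaz10phyb MeJA arrays were below the other MeJA arrays. AT3G07760 had signals of 42.8 and 60.1 in Col controls and 112 and 98.0 after MeJA, 50.3 and 51.0 and then 91.2 and 92.4 in jaz10, and 58.7 and 55.8 and then 95.9 and 64.2 in jaz10phyb. Its jaz10phyb MeJA arrays disagreed, MeJA 1 being within the range of Col and jaz10 and MeJA 2 below it, and its change was 1.03 ± 0.30 in Col, 0.85 ± 0.30 in jaz10 and 0.45 ± 0.30 in jaz10phyb.

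In the remaining 5 genes the gap was divided between both treatments, with the control part between 42.4% and 51.0% of it. PUB43 had signals of 33.8 and 44.6 in Col controls and 86.6 and 97.1 after MeJA, 49.1 and 45.8 and then 86.8 and 93.2 in jaz10, and 50.1 and 52.0 and then 78.6 and 65.8 in jaz10phyb. Its jaz10phyb controls were slightly above the highest other control, and its jaz10phyb MeJA arrays were below the other MeJA arrays. Its change was 1.22 ± 0.24 in Col, 0.91 ± 0.24 in jaz10 and 0.49 ± 0.24 in jaz10phyb. AT5G49280, the gene with the largest gap, had signals of 17.3 and 13.3 in Col controls and 31.5 and 57.7 after MeJA, 17.5 and 18.6 and then 36.3 and 35.1 in jaz10, and 18.6 and 26.4 and then 33.7 and 23.8 in jaz10phyb. Its Col MeJA arrays differed widely, and jaz10phyb MeJA 2 was below jaz10phyb control 2. Its change was 1.43 ± 0.31 in Col, 0.95 ± 0.31 in jaz10 and 0.34 ± 0.31 in jaz10phyb, at signals below the minimum of 50 in all arrays but Col MeJA 2. AT1G70810 had signals of 29.1 and 26.0 in Col controls and 68.6 and 58.2 after MeJA, 31.8 and 31.4 and then 59.4 and 57.0 in jaz10, and 37.9 and 32.9 and then 57.2 and 40.8 in jaz10phyb, and its change was 1.17 ± 0.23 in Col, 0.86 ± 0.23 in jaz10 and 0.44 ± 0.23 in jaz10phyb. Its jaz10phyb MeJA arrays were apart, MeJA 1 at the level of jaz10 and MeJA 2 nearer to the controls. AT1G76580, the close neighbour of AT1G76590, had signals of 138 and 115 in Col controls and 236 and 274 after MeJA, 118 and 145 and then 241 and 236 in jaz10, and 169 and 135 and then 204 and 206 in jaz10phyb. Its jaz10phyb MeJA arrays were below those of Col and jaz10, while its jaz10phyb controls overlapped the others, and the change was 1.01 ± 0.23 in Col, 0.86 ± 0.23 in jaz10 and 0.43 ± 0.23 in jaz10phyb. AT3G14067 had signals of 215 and 217 in Col controls and 387 and 401 after MeJA, 208 and 264 and then 499 and 407 in jaz10, and 249 and 273 and then 359.9 and 372 in jaz10phyb, and its change was 0.86 ± 0.24 in Col, 0.94 ± 0.24 in jaz10 and 0.49 ± 0.24 in jaz10phyb. Its jaz10phyb controls overlapped those of jaz10, and its jaz10phyb MeJA arrays were just below the other MeJA arrays.

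**Figure D5:**
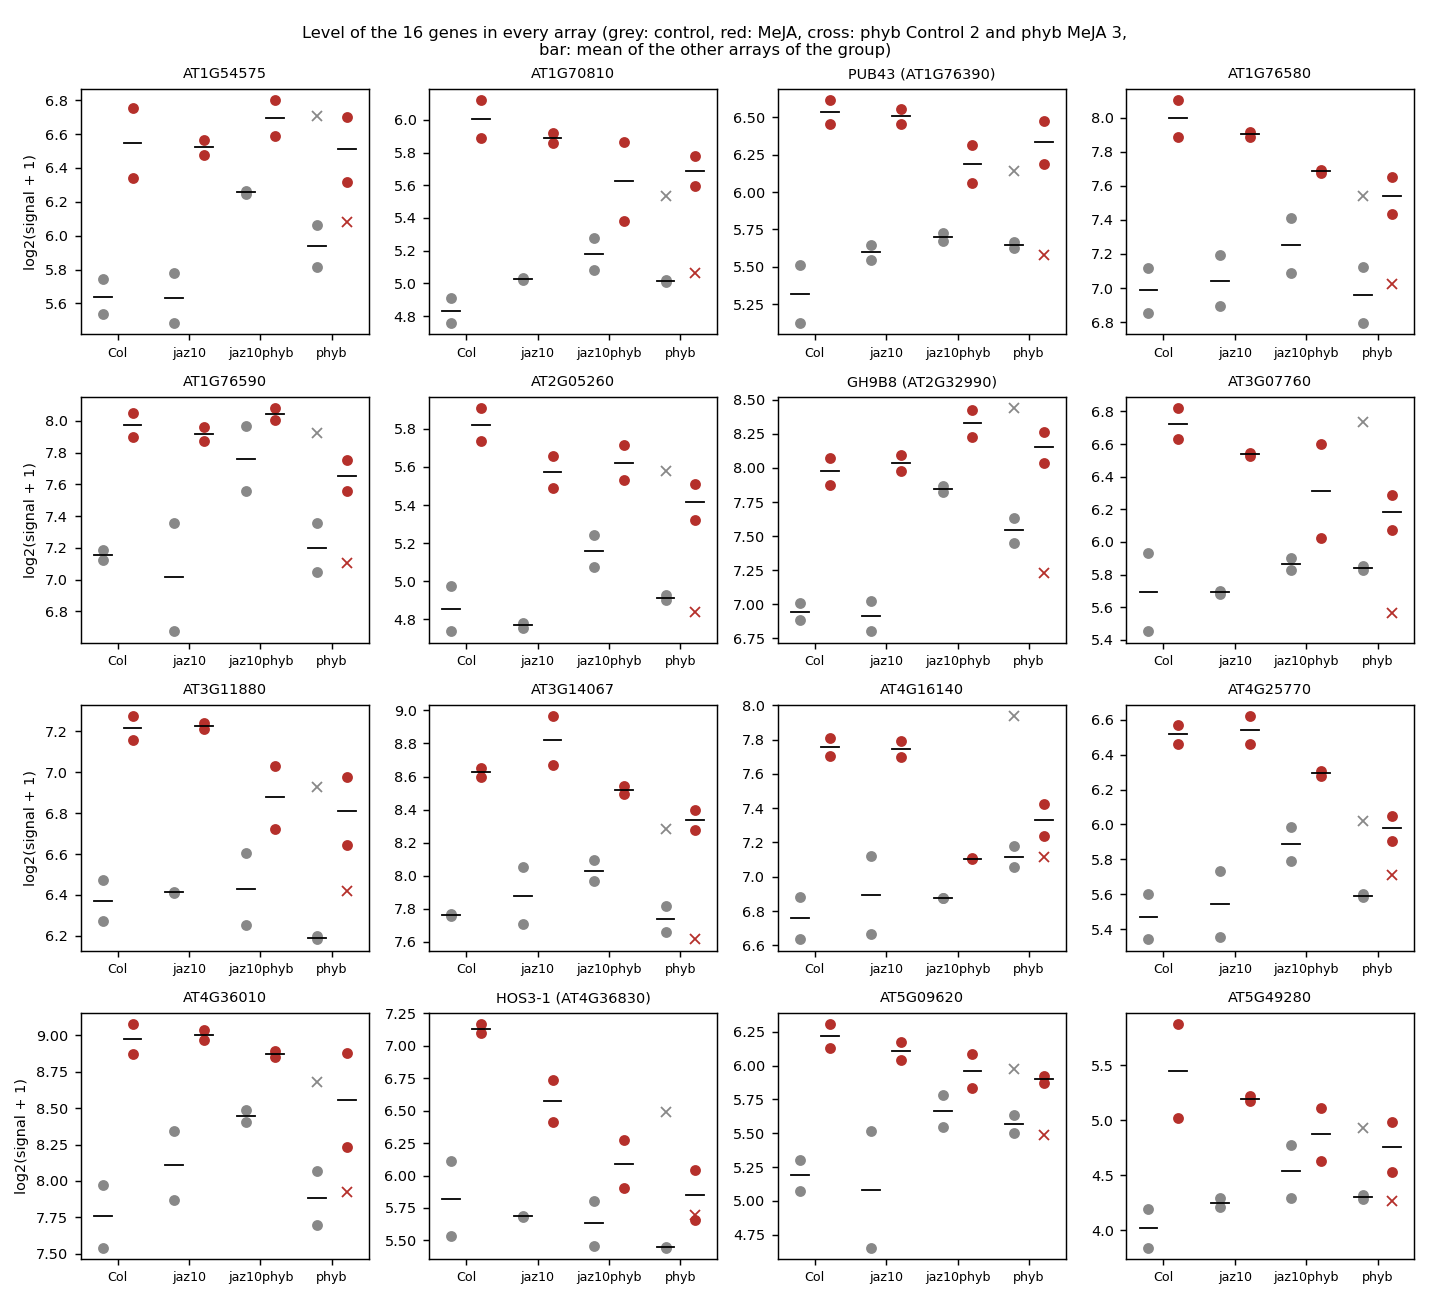
Log2(signal + 1) of the 16 genes in every array, with controls in grey, MeJA in red, the 2 doubtful phyb arrays as crosses, and bars for the mean of the other arrays of a group. In GH9B8 the jaz10phyb controls lie near the MeJA arrays of Col, while in AT4G16140 and HOS3-1 the jaz10phyb MeJA arrays lie near the controls.

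The differences in response can be set beside their error. The change in jaz10phyb minus that in Col ranged from -1.09 (AT5G49280) to -0.37 (AT3G14067), with SEs of 0.24 to 0.44. Against jaz10 it ranged from -0.73 (AT5G09620) to -0.34 (AT2G05260), with the same SEs. In limma 0 of the 16 passed at an adjusted p under 0.05 in either comparison, where 1 gene of 5689 (0.0176%) passed against Col and 0 (0%) against jaz10. At an unadjusted p under 0.05, 435 genes (7.65%) passed against Col, 4 of them among the 16, and 138 (2.43%) against jaz10, 1 of them among the 16. Without the 2 doubtful phyb arrays 0 of the 16 passed the adjusted test, with 6 genes (0.105%) called against Col and 0 (0%) against jaz10. At an unadjusted p under 0.05, 12 of the 16 then passed against Col (13.4% of all genes) and 6 against jaz10 (4.8%). At an unadjusted p under 0.05 with a 2-fold difference and all arrays, 1 of the 16 passed against Col (29 of 5689 genes in all) and 0 against jaz10 (3 genes in all). The member that passed was AT5G49280, whose signal reached the minimum of the filter in Col MeJA 2 only. Both contrasts, against Col and against jaz10, chose the genes, so the counts are a description.

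Membership depended on single arrays and on the scale. Leaving out any 1 Col, jaz10 or jaz10phyb array gave between 9 and 21 genes by the same rule. Without jaz10 control 1 there were 9, of which 8 were among the 16, and leaving out jaz10phyb MeJA 2 kept 10 of the 16. GH9B8, AT4G16140, AT4G25770, AT4G36010 and AT5G09620 met the rule in 11 of the 12 such runs, and AT3G11880 in 7. With a pseudocount of 16 in place of 1 the rule found 7 genes, 4 of them shared. In 7 of the 16 genes the mean level of the Col controls was below 5.67, the log2 value of the signal minimum, so the size of their changes is uncertain.

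The MeJA change in phyb, which the rule did not use, can be tested. With all arrays limma called 0 of the 16 genes for MeJA in phyb and 0 of all 5689 (0%), from 3 arrays per group. At an unadjusted p under 0.05, 198 genes (3.48%) and 0 of the 16 passed. The changes of the 16 ranged from -0.17 to 0.29 with a median of 0.12, against 0.33 for the 240 other raised genes and -0.03 for all genes. The array labelled phyb control 2 was above phyb controls 1 and 3 in 16 of the 16 genes, and phyb MeJA 3 was below phyb MeJA 1 and 2 in 15. The share of all 5689 genes with either order was not counted, so these counts alone do not show how unusual it is.

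Without these 2 arrays (n = 2 arrays per group) 9 of the 16 genes rose in phyb in limma, at an adjusted p under 0.05, against 393 higher genes in all (6.91%) and 226 of the 240 other raised genes. The 2 arrays were doubted for the response that is tested here, so the calls are no independent evidence that phyb responds. The 9 genes were PUB43, GH9B8, AT1G70810, AT3G14067, AT3G11880, AT2G05260, AT1G76580, AT1G54575 and AT4G36010. Without phyb MeJA 1 the count was 0 of 16 (402 genes called in all), and without phyb control 1 it was 3 of 16 (460 genes), while leaving out any other array gave 8 to 10. The change of the 16 ranged from 0.21 to 0.69 with a median of 0.53, against 1.18 for the 240 and -0.05 for all genes. Both phyb MeJA arrays were above both phyb controls in 16 of 16 genes and in 23% of all genes. The change was smaller than in Col and in jaz10 in 16 of 16, and in 204 of the 240 others. It was under 0.5 in 7 of the 16 and in 9 of the 240. The mean Col and jaz10 change was smaller in the 16 than in the 240 (medians 0.98 and 1.51), so a fixed limit is reached more easily by the 16. As a percentage of that mean, the phyb change was a median of 56.7% in the 16 and 76.7% in the 240. The Col and jaz10 arrays in these last counts and percentages are those of the rule, which favours a high change there, so the choice itself favours a smaller value in phyb.

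PUB43 had signals of 48.4, 69.6 and 49.7 in phyb controls 1, 2 and 3 and 88.1, 71.9 and 46.9 in phyb MeJA 1, 2 and 3, and without the 2 doubtful arrays its change was 0.69 ± 0.14 (limma adjusted p = 0.00481). Its controls 1 and 3 lay close together and below both MeJA arrays. Every other change in this paragraph is likewise without the 2 doubtful arrays. With all arrays the change in phyb was 0.27 in PUB43 and 0.003 in GH9B8. In the fit without them the SE of GH9B8 was 0.13 in jaz10phyb as well. GH9B8 had signals of 197, 346 and 174 in phyb controls 1, 2 and 3 and 306, 262 and 149 in phyb MeJA 1, 2 and 3, with a change of 0.61 ± 0.13 (limma adjusted p = 0.00524). Controls 1 and 3 of GH9B8 were above all 4 Col and jaz10 controls and below both jaz10phyb controls, an order found for controls against Col and jaz10 in only 1 other of the 16, AT1G54575, and in 9.98% of all genes. AT1G70810 had signals of 31.2, 45.4 and 31.5 in phyb controls 1, 2 and 3 and 53.9, 47.4 and 32.4 in phyb MeJA 1, 2 and 3, with a change of 0.67 ± 0.15 (limma adjusted p = 0.00655). AT3G14067 had signals of 201, 310.1 and 224 in phyb controls 1, 2 and 3 and 336, 309 and 195 in phyb MeJA 1, 2 and 3, with a change of 0.60 ± 0.13 (limma adjusted p = 0.00655). In both genes the concordant MeJA arrays exceeded the concordant controls and stayed below all 4 Col and jaz10 MeJA arrays. This lower level after MeJA held in 11 of the 16, in 128 of the 240 other raised genes and in 14.4% of all genes. It was therefore not particular to the 16. AT3G11880 had signals of 72.6, 121 and 71.6 in phyb controls 1, 2 and 3 and 125, 99.2 and 84.5 in phyb MeJA 1, 2 and 3, with a change of 0.62 ± 0.15 (limma adjusted p = 0.0108). AT2G05260 had signals of 29.4, 46.8 and 28.9 in phyb controls 1, 2 and 3 and 44.6, 38.9 and 27.6 in phyb MeJA 1, 2 and 3, with a change of 0.50 ± 0.12 (limma adjusted p = 0.0133). Controls 1 and 3 lay close together in both genes. All phyb signals of AT2G05260 were below the minimum of 50, which it reached only in MeJA arrays of Col and jaz10phyb. In phyb, AT1G70810 reached this minimum in MeJA 1 only. The size of the phyb changes of AT2G05260 and AT1G70810 is therefore uncertain. AT1G76580 had signals of 109.9, 185 and 138 in phyb controls 1, 2 and 3 and 199.9, 172 and 129 in phyb MeJA 1, 2 and 3, with a change of 0.58 ± 0.16 (limma adjusted p = 0.0220). AT1G54575 had signals of 55.3, 103 and 66.0 in phyb controls 1, 2 and 3 and 103, 78.8 and 66.7 in phyb MeJA 1, 2 and 3, with a change of 0.57 ± 0.17 (limma adjusted p = 0.0346). Both genes rose in phyb, AT1G54575 from controls already above those of Col and jaz10. AT4G36010 had signals of 207, 409.9 and 268 in phyb controls 1, 2 and 3 and 471, 299 and 242 in phyb MeJA 1, 2 and 3, with a change of 0.67 ± 0.21 (limma adjusted p = 0.0487). Its MeJA 1 was level with the MeJA arrays of Col and jaz10 and its MeJA 2 was far below them. The call of AT4G36010 held in 6 of 16 fits that left out 1 further array, with a change of 0.35 without phyb MeJA 1 (adjusted p = 0.451 in limma) and 1.00 without phyb MeJA 2. The change of AT1G54575 was 0.38 without phyb MeJA 1, and its call held in 14 of the 16.

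Among the 7 genes not called in phyb were both genes with the lowest levels after MeJA in jaz10phyb relative to Col and jaz10. AT4G16140 had signals of 144, 244 and 132 in phyb controls 1, 2 and 3 and 171, 149.8 and 138 in phyb MeJA 1, 2 and 3, with a change of 0.21 ± 0.14 (limma adjusted p = 0.331) without the 2 arrays. Its highest phyb array was control 2, which was above every array of Col, jaz10 and jaz10phyb. HOS3-1 had signals of 42.8, 88.8 and 42.6 in phyb controls 1, 2 and 3 and 64.9, 49.5 and 50.8 in phyb MeJA 1, 2 and 3, with a change of 0.40 ± 0.20 (limma adjusted p = 0.185). Its phyb MeJA arrays 1 and 2 were below the MeJA arrays of Col and jaz10 and overlapped those of jaz10phyb. The other 5, AT1G76590, AT3G07760, AT4G25770, AT5G09620 and AT5G49280, had changes without the 2 arrays between 0.33 and 0.46. The controls of phyb, without control 2, were above the Col and jaz10 mean in 11 of the 16 genes, by a median of 0.11 over the 16, against 0.30 in jaz10phyb. In phyb this median was 0.06 for the 240 other raised genes and -0.01 for all genes. After MeJA, phyb without MeJA 3 was below the Col and jaz10 mean in 15 of the 16. The median difference was -0.40, against -0.32 for the 240 and -0.03 for all genes. These differences share the Col and jaz10 arrays.

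Genes of the jasmonate pathway served as a comparison. Of 203 genes on 10 lists, 22 were tested and 0 were among the 16. For jasmonate synthesis 2 of 22 were tested, JMT, which makes MeJA from jasmonate, and OPCL1, a ligase of jasmonate precursors. JMT had changes of 3.48 in Col, 2.74 in jaz10 and 2.34 in jaz10phyb, and OPCL1 of 1.52, 1.46 and 0.95 (log2), so that both stayed above the limit of the rule in jaz10phyb. In limma with all arrays 2 of 2 were higher in Col, 1 in jaz10 and 0 in jaz10phyb, and without the doubtful arrays 2 of 2 were higher in all 3 and in phyb. Of the perception and transcription list 2 of 29 were tested. MYC3, a transcription factor that JAZ proteins bind, had changes of 0.58, 0.79 and 0.72, and MYC4, its relative, of -0.01, -0.11 and -0.05. Without the doubtful arrays 1 of 2 was higher in each genotype.

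Of the defence and wound list 5 of 21 were tested, and 3 were higher in Col with all arrays. The methyltransferase gene BSMT1 had changes of 2.85, 2.14 and 2.46 in Col, jaz10 and jaz10phyb, and the acyltransferase gene CHAT of 2.73 in Col, 2.55 in jaz10 and 2.096 in jaz10phyb. Without the doubtful arrays both were higher in all 4 genotypes. PDF1.2a, a defensin gene with near-identical copies in the genome, had changes of 1.74, 0.10 and 0.40, and so missed the rule through jaz10. On the phytochrome and shade list 3 of 25 were tested, and HAT2, a homeobox gene, was the 1 gene called with all arrays, lower in Col with a change of -0.90. Without the doubtful arrays HAT2 was again lower in Col, PIF7, a factor that phytochrome B binds, was lower in jaz10phyb (-0.50), and IAA29, an auxin response repressor, was lower in phyb (-1.36). The single glucosinolate gene tested, UGT74B1, had changes of 0.33, 0.35 and 0.44 and was not called in any genotype with all arrays. It was higher in Col, jaz10 and jaz10phyb without the doubtful arrays, and not called in phyb. Of sulfur assimilation 2 of 14 were tested, with SIR, the sulfite reductase gene, higher in Col (0.63) and APS3, an ATP sulfurylase gene, higher in jaz10 (0.72) with all arrays. Without the doubtful arrays SIR was higher in all 4 genotypes and APS3 in jaz10 and jaz10phyb. Of the abscisic acid and dehydration list 5 of 14 were tested, and with all arrays the cold-induced genes COR47 and COR15B were lower in jaz10 (-1.24 and -0.86). Without the doubtful arrays COR47 was lower in all 4 genotypes (-0.67 in Col and -1.07 in jaz10phyb), and COR15B and LTI30 in jaz10 and jaz10phyb. Of photosynthesis 2 of 24 were tested, RCA and LHCB4.1, and 0 were called in any genotype in either fit. For jasmonate catabolism and for tryptophan synthesis 7 of 12 and 15 of 16 symbols were matched to a locus, and 0 of these genes were tested.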

How the data were processed

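Groups and replicate numbers came from the sample titles. The deposited values are signal intensity per probe set. The submitters' processing notes name Affymetrix Expression Console for them. No source used here gives the summarisation method, the version or the build. That the scale is linear was inferred from the numbers (array medians 14.87 to 17.5). Of 38408 probe sets, 16722 had 1 annotated gene, 759 several and 20927 none. Symbols were updated through a RefSeq table of TAIR10.1, which matched 16574. A probe set needed a signal of 50 or more on some array, and the one with the highest mean stood for its gene, giving 5689 genes (833 with a symbol).

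Values were taken as log2(value + 1). A limma model (limma 3.58.1, R 4.3.3), with 8 group means, was fitted to all genes and 18 arrays. Benjamini-Hochberg adjustment was used, with calls at an adjusted p under 0.05. SEs are the moderated ones of this model. The code was also run on simulated data, whose spread was taken from the arrays without the 2 doubted phyb ones. That run therefore does not cover the spread of the fit with all arrays. The number of arrays limits the precision. The 16 genes, the lists and the tests were chosen with earlier results of these data known, the doubt about 2 phyb arrays among them. Values in every array are printed for all 16 genes in Col, jaz10 and jaz10phyb, and phyb values for those called without the 2 doubted arrays and for both with the lowest MeJA level in jaz10phyb, which goes past the set rule for named genes (a symbol, the 8 largest gaps, the 3 lowest changes in jaz10phyb, the 3 highest Col MeJA signals, and the 6 smallest adjusted p in phyb). Of each list at most 4 tested genes were named, called ones first. Alternatives were another pseudocount, other filters, quantile normalization, the mean of probe sets, a replicate block, the 2 doubted phyb arrays left out, separate fits, other eBayes settings, an unadjusted p with a 2-fold change, and each array left out in turn. Leaving out each further array beside the 2 doubted ones was added after the data were seen. No sequence is shown.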

Additional observations from a re-analysis of the deposited data

Results flagged for a closer look

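The response of AT5G17010 to MeJA differed between jaz10phyb and Col by -0.93 ± 0.13 on the log2 scale (limma adjusted p = 0.0383, n = 2 arrays per group), the only gene of 5689 called for that difference. It is not one of the 16 genes and was named after its value was seen. Its signal was 55.5 and 59.5 in Col controls and 69.7 and 69.4 after MeJA, and 73.7 and 68.4 and then 44.6 and 44.7 in jaz10phyb. Its change was 0.27 in Col, -0.08 in jaz10 and -0.66 in jaz10phyb. It is also the 1 gene called lower after MeJA in jaz10phyb with all arrays, beside AT5G01210, the 1 gene called higher. The call for the difference was lost with a pseudocount of 16, no filter, quantile normalization, a replicate block or the trend and robust setting, and with a signal minimum of 100 the gene was not tested. No gene was called for the difference without any 1 of the 12 Col, jaz10 and jaz10phyb arrays, or without phyb control 1, phyb control 3, phyb MeJA 1 or phyb MeJA 2.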

How the results depend on the processing

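With all arrays limma called 837 genes for MeJA in Col, 497 in jaz10, 2 in jaz10phyb, 0 in phyb and 1 for the difference between jaz10phyb and Col. With no filter these were 213, 127, 0, 1 and 0. With a signal of at least 100, 0 were called in jaz10phyb and 0 for the difference. Separate fits gave 1502, 1244, 842, 0 and 17, and an unadjusted p with a 2-fold change gave 372, 335, 239, 1 and 29. The trend and robust setting gave 10 in jaz10phyb and 0 for the difference, and a pseudocount of 16 or quantile normalization gave 0 for the difference. Without both doubted phyb arrays the counts were 1771, 1400, 1058, 926 and 6, with 9 of the 16 genes called in phyb and a median change of 0.53 there, against 0.12. Leaving out each array in turn gave 0 to 1417 in Col, 0 to 1026 in jaz10, 0 to 547 in jaz10phyb, 0 in phyb and 0 to 3 for the difference, with 0 of the 16 called in phyb and a median of -0.0401 to 0.33. Leaving out each further array beside the doubted ones gave 1119 to 1781, 801 to 1419, 635 to 1077, 402 to 1040 and 0 to 30, with 0 to 10 of the 16 called and a median of 0.39 to 0.67. Where such a fit left a group with 1 array, that array was assumed to vary like the other groups.

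The rule found 7 genes with a pseudocount of 16, 10 with a signal of at least 100, 13 with quantile normalization (10 shared), 23 without a filter, and 9 to 21 when any 1 array was left out. In phyb 0 of the 16 genes were called under every alternative that kept both doubted arrays or left out 1 of the 18 arrays. With the replicate number as a block the counts were 1243, 923, 392, 0 and 0, with 0 of the 16 called in phyb. The numbers are not known to pair the samples. The correlation of deviations between same-numbered control and MeJA arrays was 0.0937 in Col, -0.0195 in jaz10, 0.0998 in jaz10phyb, and -0.721, 0.452 and 0.602 for the 3 numbers of phyb. The cause of the changes with the setting was not tested, beyond the smaller number of genes or arrays that some settings leave.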
